A study of Mus musculus with 6 samples.

Results

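Sp6 and Gm11532 are 2 of the 24972 genes in the deposited tables. They were taken by gene symbol and are read here as 1 locus, because their exons lie over each other on opposite strands of mouse chromosome 11. They were chosen by their measured values in these libraries, namely the high normalized counts of Gm11532 in wild-type molars and its low ones in homozygous mutants, so their levels are described without a test. The 6 libraries hold total RNA of upper first molars from postnatal day 1 mice. Molars carried the Ascl5 mutation on both alleles (Ascl5Mut/Mut, 2 libraries), on 1 allele (Ascl5Mut/WT, 2 libraries) or on neither (Ascl5WT/WT, 2 libraries). The labels name 1 batch for all 6 libraries and give neither the strain nor the number of animals or teeth in a library. One table holds the Ascl5Mut/Mut and Ascl5WT/WT libraries, and the other holds the Ascl5Mut/WT libraries with the same Ascl5WT/WT libraries, normalized again.

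Sp6 encodes a zinc finger transcription factor of the SP/KLF class, also called epiprofin, which is made in the dental epithelium, hair follicles and limb bud ectoderm. Mice that lack it form extra teeth without proper enamel, since dental epithelial cells do not become ameloblasts, the cells that lay down enamel matrix. Ascl5, also called AmeloD, encodes a basic helix-loop-helix factor of the dental epithelium. Gm11532 is a gene model without coding sequence, for which RefSeq also lists the name Sp6os. No function of Gm11532 is taken as known here.

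Sp6 (ENSMUSG00000038560.7) lies on the plus strand of chromosome 11, from 97013394 to 97024734 (GRCm38, the same assembly as the mm10 build of the submitters' processing notes). Gm11532 (ENSMUSG00000087067.1) lies on the minus strand, from 97020508 to 97026248. GENCODE gives Sp6 a pair of transcripts, each with a noncoding first exon and the whole coding sequence of 1128 bases in exon 2. Exon 1 of Gm11532 covers all 3329 bases of exon 2 of Sp6. The shared stretch makes up 86.7% of the 3841 exon bases of Sp6 and 63.1% of the 5272 exon bases of Gm11532. It leaves 512 exon bases to Sp6 alone, all in its first exons, and 1943 to Gm11532 alone.

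The same stretch of chromosome therefore stands in both transcripts, read in opposite directions. The first pair of lines shows the start of the Sp6 coding sequence (chr11:97021463-97021507) as each transcript holds it, with the start codon and its complement in capitals. The second pair shows the end of the coding sequence (chr11:97022549-97022593), with the stop codon and its complement in capitals. Sequences are from the GENCODE M21 transcripts.
Sp6 start, plus strand: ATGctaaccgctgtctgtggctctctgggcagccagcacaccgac
Gm11532 over the Sp6 start, minus strand: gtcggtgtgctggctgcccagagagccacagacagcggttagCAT
Sp6 end, plus strand: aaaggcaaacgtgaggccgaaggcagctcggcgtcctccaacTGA
Gm11532 over the Sp6 end, minus strand: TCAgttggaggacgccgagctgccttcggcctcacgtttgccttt
The splice junction of Gm11532 is shown because no Sp6 transcript holds it. It joins the last 20 bases of exon 1 (chr11:97021384-97021403, lower case) to the first 20 of exon 2 (chr11:97020895-97020914, capitals) on the minus strand.
Gm11532 junction: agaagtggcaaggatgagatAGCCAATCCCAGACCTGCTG

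The deposited tables give 1 value per gene and no reads by position or junction. Over the shared bases, a read can be given to Sp6 or to Gm11532 only by its strand. The libraries came from a stranded kit, but the strand setting used in counting is not given in the sources used here. Values of either gene may therefore hold reads of the other, and their RNAs cannot be told apart from these files.

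**Figure D1:**
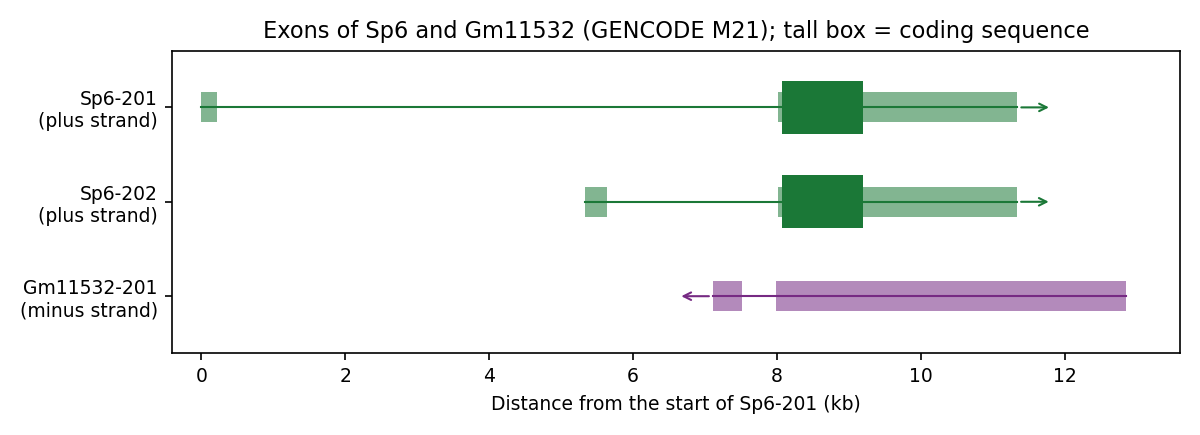
Exon models of Sp6 and Gm11532 from GENCODE M21, plotted by distance in kb from the start of Sp6-201. Pale boxes are exons, tall dark boxes are coding sequence and arrows give the direction of transcription. Exon 1 of Gm11532 covers the whole of exon 2 of Sp6.

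Few reads were counted per library. Values are the authors' normalized counts, with totals of 12304814 to 13118122 per library, and the most frequent low value, taken as the worth of 1 read, was 108.7 to 139.8 normalized counts. That gives an estimated 90476 to 117399 counted reads per library. This is a number of counted reads and does not give the sequencing depth. A value of 0 allows up to 3 reads, a floor of 326.1 to 419.4 normalized counts. Intervals and floors on these estimated reads cover counting error only. Between 66.6% and 71.0% of genes were listed at 0 in each library, and Ascl5 itself was listed at 0 in all 6, so the mutated gene gives no check of the labels.

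Gm11532 was low in homozygous mutant molars and high in all others. Its normalized counts were 2113 and 29497 in Ascl5Mut/Mut replicates 1 and 2, against 869884 and 389895 in Ascl5WT/WT replicates 1 and 2. Both Ascl5Mut/Mut values were below both Ascl5WT/WT values, and the groups did not overlap. The Ascl5Mut/Mut mean of 15805 ± 19363 was 2.51% of the Ascl5WT/WT mean of 629889 ± 339403 (SD, n = 2 each). On the log2(value + 120) scale the difference was -6.16. The genes tested in that comparison were the 2336 that averaged 1000 or more. The pseudocount of 120 is about 1 read. With Sp6 added to it, the locus gave the same difference of -6.16. These are values that chose the gene, so nothing is tested on them. For background, 21.8% of these genes did not overlap between the groups and were lower in Ascl5Mut/Mut, and 22% did not overlap and were higher.

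The spread within genotypes was wide. The Ascl5Mut/Mut libraries differed 14.0-fold from each other, with replicate 1 the lower, and the Ascl5WT/WT libraries differed 2.23-fold, with replicate 1 the higher. Across single libraries, the Ascl5Mut/Mut values were 0.243% to 7.57% of the Ascl5WT/WT values. The estimated reads of Gm11532 were 15 and 217 in Ascl5Mut/Mut, against 8003 and 3251 in Ascl5WT/WT. The difference was -4.30 without Ascl5Mut/Mut replicate 1 and -8.03 without replicate 2.

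Heterozygous molars had levels of Gm11532 near that of the lower wild-type library. The normalized counts were 356431 and 417754 in Ascl5Mut/WT replicates 1 and 2, against 885114 and 405796 in Ascl5WT/WT replicates 1 and 2 of the same table. The groups overlapped, since Ascl5Mut/WT replicate 2 stood above Ascl5WT/WT replicate 2. The means were 387093 ± 43362 in Ascl5Mut/WT and 645455 ± 338929 in Ascl5WT/WT (SD, n = 2 each). The difference on the log2(value + 120) scale was -0.64, and leaving out Ascl5WT/WT replicate 1 gave -0.07 while leaving out Ascl5WT/WT replicate 2 gave -1.20. In this comparison 19.5% of the 2370 genes tested did not overlap and were lower in Ascl5Mut/WT, and Gm11532 was not among them. Both comparisons use the same Ascl5WT/WT libraries, so they are not independent of each other.

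In order of level, Ascl5Mut/Mut replicate 1 came lowest, then Ascl5Mut/Mut replicate 2. Ascl5Mut/WT replicate 1, Ascl5WT/WT replicate 2 and Ascl5Mut/WT replicate 2 followed close together, and Ascl5WT/WT replicate 1 stood highest. The Ascl5Mut/WT and Ascl5WT/WT levels are interleaved in this order, and the difference of -0.64 has a pooled SD of 0.57 on the log2 scale. The tables were normalized separately, and Gm11532 in the Ascl5Mut/WT table was 1.02 and 1.04 times its value in the Ascl5Mut/Mut table for the same Ascl5WT/WT libraries, a change far smaller than the gap to the Ascl5Mut/Mut libraries.

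Gm11532 alone took a sizeable part of each library outside the homozygotes. It held 0.0164% and 0.240% of all normalized counts in Ascl5Mut/Mut, against 6.83% and 3.10% in Ascl5WT/WT. In the other table it held 2.72% and 3.19% in Ascl5Mut/WT, against 6.83% and 3.10% in Ascl5WT/WT. The 95% Wilson interval on estimated reads was 0.00985% to 0.0268% in Ascl5Mut/Mut replicate 1 and 0.210% to 0.274% in replicate 2, against 6.69% to 6.98% in Ascl5WT/WT replicate 1.

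By normalized counts, which are not corrected for gene length, Gm11532 ranked 1183 and 34 among all genes in the Ascl5Mut/Mut libraries, and ranked 1 in each Ascl5Mut/WT and each Ascl5WT/WT library. In the Ascl5Mut/WT libraries it was 2.67 and 1.61 times the next highest value, against 5.65 and 2.76 times in the Ascl5WT/WT libraries. The highest feature was A630019I02Rik in Ascl5Mut/Mut replicate 1 and Tsix in replicate 2.

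**Figure D2:**
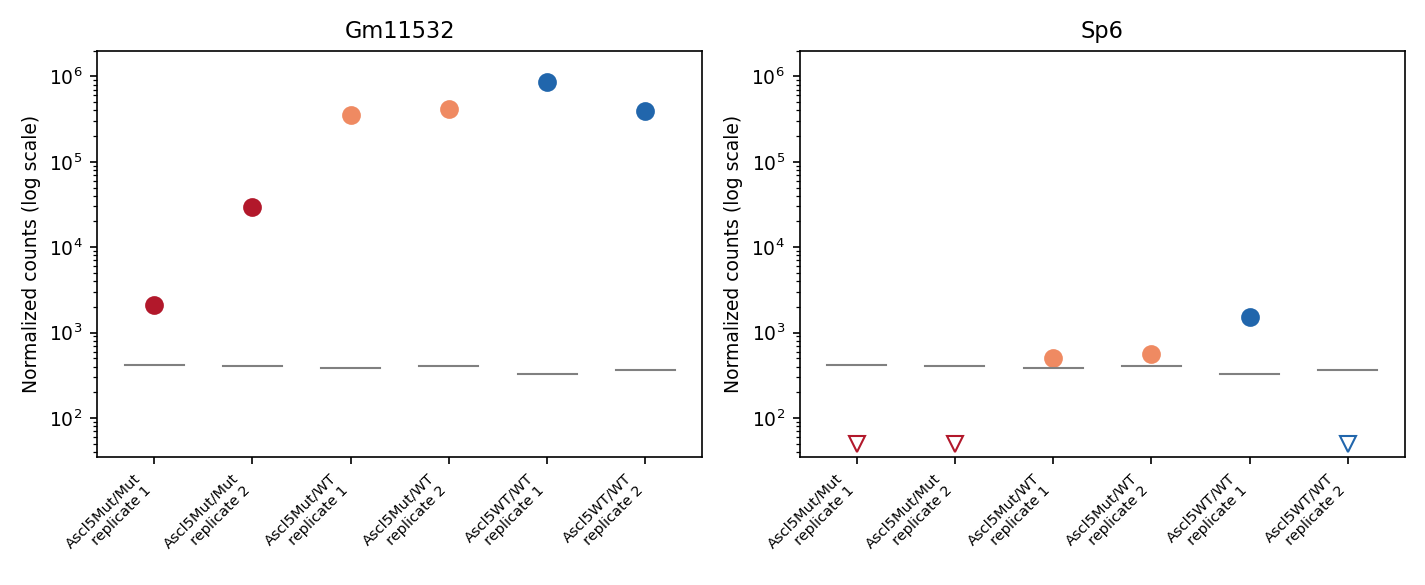
Normalized counts (log scale) of Gm11532 and Sp6 in each of the 6 libraries, Ascl5WT/WT values from the table with Ascl5Mut/Mut; grey bars mark the floor of 3 estimated reads and open triangles mark values listed at 0. Gm11532 is at 2113 and 29497 in Ascl5Mut/Mut and at or above 356431 elsewhere, while Sp6 reaches at most 1525.

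Sp6, the coding gene of the locus, had few reads counted under its name in every library. Its normalized counts were 0 and 0 in Ascl5Mut/Mut, against 1525 and 0 in Ascl5WT/WT. In the other table they were 506.4 and 557.8 in Ascl5Mut/WT, against 1518 and 0 in Ascl5WT/WT. The 506.4 and 557.8 amount to 4 estimated reads each and the 1525 to 14. The groups overlapped in both tables, because Ascl5WT/WT replicate 2 was at 0. The mean of Sp6 was under 1000 in both tables, so it did not pass the filter on low values, and no fold change is given for it.

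Outside the homozygotes, Sp6 held a very small share of the reads of the locus. Sp6 held 4 of 2810 estimated reads of the locus in Ascl5Mut/WT replicate 1, a share of 0.142% (95% Wilson interval 0.0554% to 0.365%). It held 4 of 3058 in Ascl5Mut/WT replicate 2, a share of 0.131% (0.0509% to 0.336%). In Ascl5WT/WT replicate 1 the share was 0.175% (0.104% to 0.293%), and in Ascl5WT/WT replicate 2 it was 0 of 3251 reads, which allows up to 0.0923%. The Ascl5Mut/WT intervals overlap that of Ascl5WT/WT replicate 1. The limit of Ascl5WT/WT replicate 2 lies just below the interval of Ascl5WT/WT replicate 1, while its 95% Wilson upper bound of 0.118% lies within it, so a difference between the wild-type libraries is at the edge of counting error.

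In homozygotes the balance could not be read. Sp6 held 0 of 15 estimated reads of the locus in Ascl5Mut/Mut replicate 1, which allows a share of up to 19.8%, and 0 of 217 in replicate 2, which allows up to 1.38%. Both limits lie above the share of each other library. A difference in the share of Sp6 was not detectable with so few counted reads in Ascl5Mut/Mut. Per kb of exon, Gm11532 had 400.9 and 5595 normalized counts in Ascl5Mut/Mut, against 165001 and 73956 in Ascl5WT/WT. Sp6 had 397.0 per kb in Ascl5WT/WT replicate 1, and 131.8 and 145.2 per kb in the Ascl5Mut/WT libraries.

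How opposite-strand neighbours divide their value elsewhere was described over all gene pairs whose exons overlap by at least 200 bases and whose 6 libraries sum to at least 6000 normalized counts. In each pair, the share of the summed value per kb of exon in the gene with the longer coding sequence was taken. Sp6 held 0.172% of its pair. Of 609 pairs, 9 had a smaller share, and the median was 36.2%. In 165 pairs the partner had no coding sequence, as in Gm11532. There the median share of the coding gene was 12.04%, and 5 pairs had a smaller share than Sp6.

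By the sum of normalized counts, not corrected for length, the locus had the highest value of all 609 pairs. The next 4 by that sum were Copg2 with Mest, Srsf4 with Gm12992, Cmya5 with A630019I02Rik, and Eml5 with Zc3h14. Copg2, a coat protein subunit of vesicles, held 93.8% of its pair beside the imprinted gene Mest. Srsf4, a splicing factor, held 2.39% beside the noncoding model Gm12992, and Cmya5, a muscle protein, held 0.480% beside A630019I02Rik. Eml5 held 98.9% beside Zc3h14, which encodes a poly(A) binding protein. A near-complete tilt to 1 gene was common: the longer coding gene held under 10% in 27.8% of pairs and over 90% in 17.6%. As the strand setting used in counting is not given, the value of either gene of a pair may hold reads of the other. Which strand the reads of these pairs came from was not tested, so the shares do not show which gene was expressed.

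**Figure D3:**
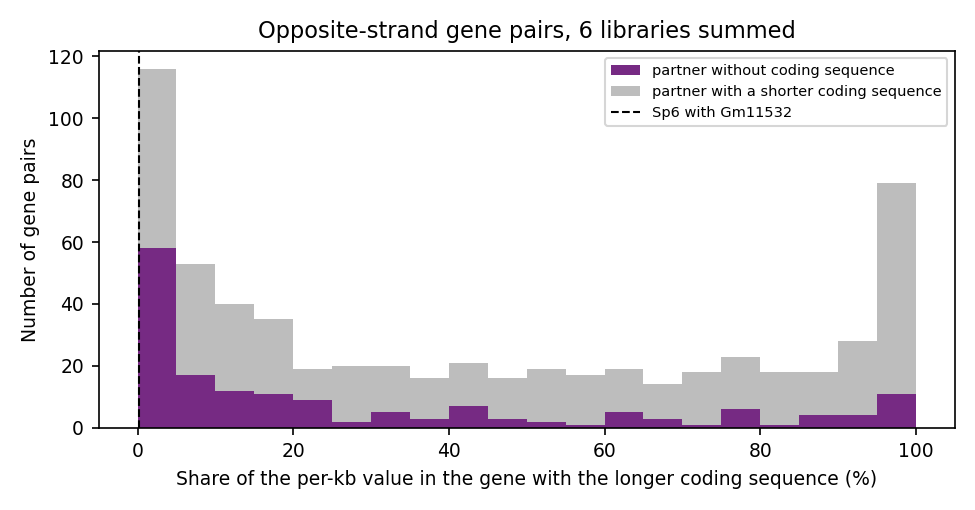
Number of opposite-strand gene pairs by the share (%) of the pair's value per kb of exon that lies in the gene with the longer coding sequence, 6 libraries summed, with 609 pairs in all. Purple bars are the 165 pairs whose partner has no coding sequence, grey bars are the other pairs, and the dashed line marks Sp6 with Gm11532 at 0.172%.

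High values were seen in Gm11532 and in no other gene nearby. Of the 16 other annotated genes within 100 kb, 11 are named in the tables, and the summed normalized counts of the 11 were at most 4289 in any library of either table. None reached a mean of 1000, so none was tested. Sp2, which encodes another SP factor and ends 30435 bases before Sp6, had 136.2 and 1395 in Ascl5Mut/Mut against 1089 and 0 in Ascl5WT/WT, values that overlap. Sp2 had 498.3 and 837.5 in Ascl5Mut/WT, between the Ascl5WT/WT values of that table. Scrn2, which lies 3690 bases past Gm11532, had 0 and 136.0 in Ascl5Mut/Mut, against 0 and 0 in Ascl5WT/WT.

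Among the other genes of that stretch, D030028A08Rik had 836.4 and 273.5 in Ascl5Mut/Mut, against 1426 and 357.0 in Ascl5WT/WT. Cdk5rap3, Prr15l, Mrpl10, Lrrc46, Osbpl7, Mir8103 and Tbx21 had no value above 1141 in any library, and Mir8103 and Tbx21 were listed at 0 throughout. Within 250 kb, 21 genes are named in the tables. Cbx1, Nfe2l1 and Kpnb1 passed the filter, and limma called 0 of these 3 in either comparison, with 0 at an unadjusted p under 0.05, where 0.856% and 0.549% of all genes tested were called in Ascl5Mut/Mut and Ascl5Mut/WT. Kpnb1, a nuclear import factor, had 2827 and 672.6 in Ascl5Mut/Mut, against 2832 and 2285 in Ascl5WT/WT (log2 difference -0.80, SE 0.74, limma adjusted p = 0.697).

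**Figure D4:**
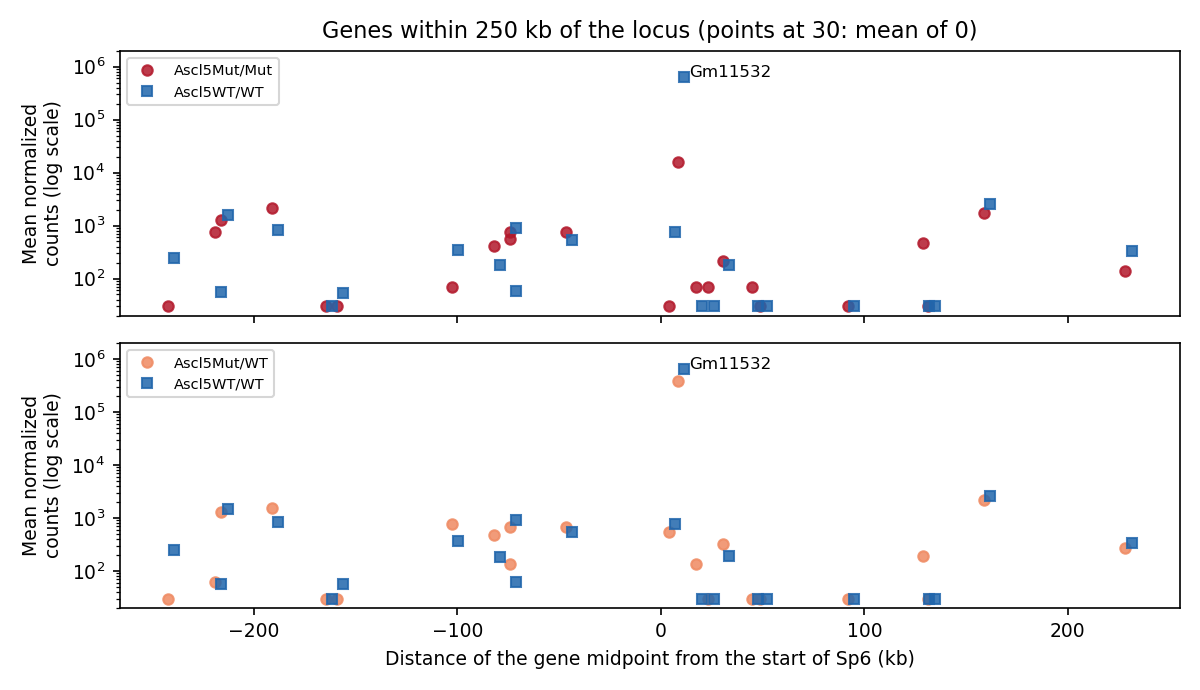
Mean normalized counts (log scale) of genes within 250 kb of the locus, by distance of the gene midpoint from the start of Sp6 in kb, with mutant circles and Ascl5WT/WT squares set slightly apart; points at 30 have a mean of 0. Gm11532 stands far above every neighbour in Ascl5Mut/WT and Ascl5WT/WT, and at 15805 in Ascl5Mut/Mut.

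Since Sp6 is a gene of the dental epithelium, Gm11532 was set beside 10 epithelial markers. These are keratins Krt5, Krt14, Krt15, Krt17, Krt8 and Krt18, and the adhesion and junction genes Epcam, Cdh1, Perp and Dsp. The markers are of epithelium in general, so their sum does not measure dental epithelium alone. They summed to 15867 and 74882 in Ascl5Mut/Mut, against 38063 and 36999 in Ascl5WT/WT. Most of the sum in Ascl5Mut/Mut replicate 2 was Dsp and Krt14, with 40760 and 20549. The Ascl5WT/WT sums lay between the Ascl5Mut/Mut sums, and limma called 0 of the 7 markers tested in Ascl5Mut/Mut, with 1 at an unadjusted p under 0.05. Among all genes of that comparison 0.3% were called lower, and in Ascl5Mut/WT 0.211% were. Of the 7, 3 lay above 0 and 4 below, with a median of -0.28. Krt15, of basal cells, had 823 and 5974 in Ascl5Mut/Mut, against 0 and 0 in Ascl5WT/WT, and the desmosome gene Dsp had 6058 and 40760, against 14525 and 10488. Krt5 had 824.1 and 986.5, against 2304 and 1759. Krt8, Krt18 and Epcam did not pass the filter, with 0 in Ascl5Mut/Mut and 110.5 to 549.4 in Ascl5WT/WT, a few reads. Ratios to these markers are of normalized counts not corrected for length, so only their change between libraries is described. They hold the values that chose Gm11532 and test nothing. Gm11532 was 0.133 and 0.394 times the marker sum in Ascl5Mut/Mut, against 22.9 and 10.5 times in Ascl5WT/WT. In the other table it was 10.6 and 4.56 times the sum in Ascl5Mut/WT, against 22.2 and 10.3 times in Ascl5WT/WT.

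In bulk tissue, fewer cells of a type and less RNA per cell cannot be told apart. Markers of another epithelium moved as well. Genes of keratinized oral epithelium (Krt4, Krt13, Krt76, Krtdap, Sprr3, Rptn, Krt6a and Krt16) summed to 19389 and 127997 in Ascl5Mut/Mut, against 218.6 and 540.1 in Ascl5WT/WT. They summed to 14446 and 49207 in Ascl5Mut/WT, against 222.1 and 562.0. Limma called 3 of the 6 tested members higher in Ascl5Mut/Mut and 2 of 5 in Ascl5Mut/WT, where 0.557% and 0.338% of all genes tested were called higher. The tested members had Ascl5WT/WT values under the floor and passed the filter only through their mutant values. Their calls are therefore a description, and the shares over all genes are no fair background for them. Without Ascl5Mut/Mut replicate 1 or 2, 0 genes in all were called higher in that comparison, and likewise 0 without Ascl5Mut/WT replicate 1 or 2 in the other. The part of these cells in the level of Gm11532 was not tested.

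Markers of other tissues differed as well, also between the homozygous libraries. Muscle markers (Acta1, Myh3, Myh8 and Ttn) summed to 197651 in Ascl5Mut/Mut replicate 1 and 7406 in replicate 2, against 6948 and 25084 in Ascl5WT/WT. Mesenchymal markers such as Vim and Col1a1, 8 in all, summed to 135280 and 79405 in Ascl5Mut/Mut, against 34691 and 56672 in Ascl5WT/WT. Bone markers, 6 in all, summed to 26603 and 22670 in Ascl5Mut/Mut, against 1951 and 7110 in Ascl5WT/WT. Most of the Ascl5Mut/Mut sum was Ibsp, with 21832 and 19262, against 329.2 and 5488 in Ascl5WT/WT. Bglap, Dmp1 and Phex were also higher in both Ascl5Mut/Mut libraries. Runx2 went the other way, with 0 and 140.7 in Ascl5Mut/Mut, against 1405 and 540.1 in Ascl5WT/WT, and Sp7 overlapped. Osteoclast markers (4 genes, Ocstamp at 0) summed to 16198 and 9923 in Ascl5Mut/Mut, against 430.4 and 120.4 in Ascl5WT/WT. Among them Ctsk, the bone-degrading protease cathepsin K, had 11106 and 7277 in Ascl5Mut/Mut, against 108.8 and 120.4 in Ascl5WT/WT. Limma called Ctsk higher (adjusted p = 0.0151), a call that is lost without Ascl5Mut/Mut replicate 1 or 2. Its Ascl5WT/WT values are under the floor, so it passed the filter only through its Ascl5Mut/Mut values. The call is therefore a description, and no log2 difference is given. The part of these tissues in the level of Gm11532 was not tested.

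**Figure D5:**
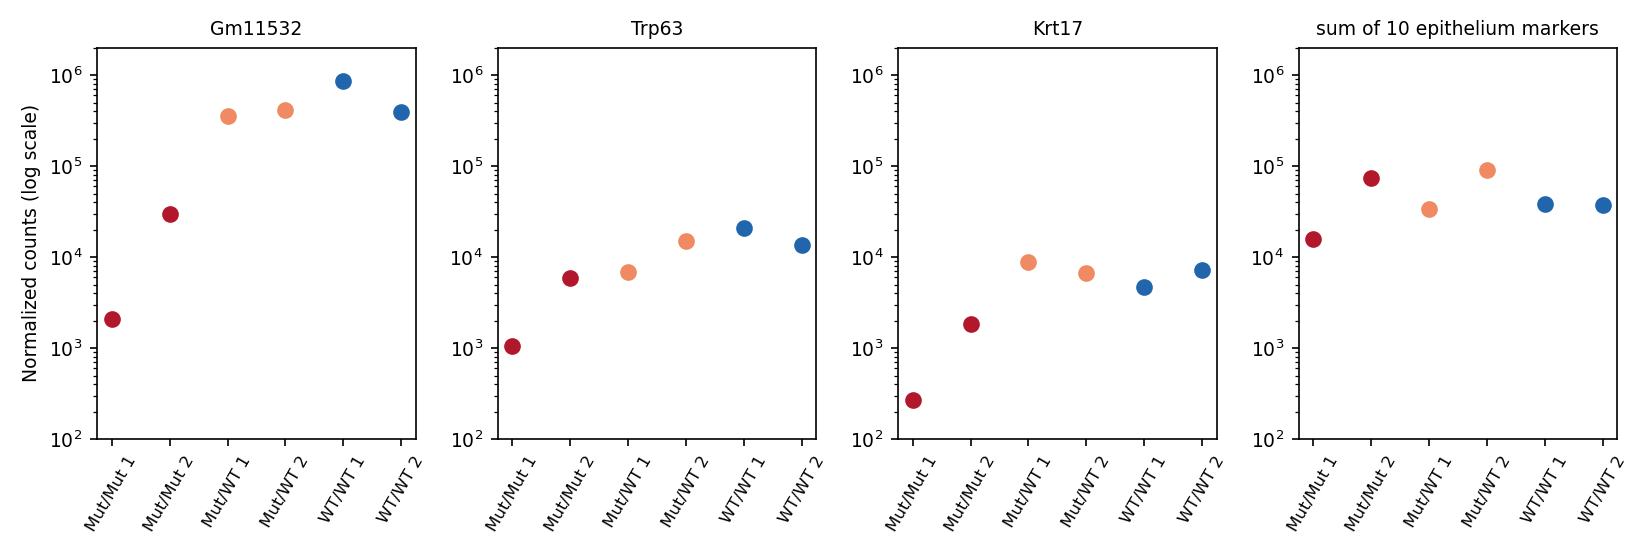
Normalized counts (log scale) of Gm11532, Trp63, Krt17 and the sum of 10 epithelium markers in each library, Ascl5WT/WT values from the table with Ascl5Mut/Mut. Gm11532 is lowest in both Ascl5Mut/Mut libraries, as are Trp63 and Krt17, while the marker sum in Ascl5Mut/Mut replicate 2 lies above both Ascl5WT/WT sums.

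Regulators and signals of the dental epithelium were read from a list of 30 genes, of which 5 were at 0 throughout the Ascl5Mut/Mut table and 7 passed the filter. Limma called 0 of the 7, with 1 at an unadjusted p under 0.05, where 0.856% of all 2336 genes tested were called and 261 had an unadjusted p under 0.05. Of the 7, 2 lay above 0 and 5 below, with a median log2 difference of -0.11, beside -0.02 over all genes tested. In Ascl5Mut/WT, limma called 0 of 10, and 0 had an unadjusted p under 0.05, where 0.549% of all 2370 genes tested were called and 207 had an unadjusted p under 0.05. Their median was -0.24, beside 0.04 over all genes tested.

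Trp63, a master regulator of stratified epithelium, had 1049 and 5829 in Ascl5Mut/Mut, against 21134 and 13756 in Ascl5WT/WT (log2 difference -2.70, SE 0.68, limma adjusted p = 0.145). Its groups did not overlap, though it did not pass the test. Gm11532 was 2.02 and 5.06 times Trp63 in Ascl5Mut/Mut, against 41.2 and 28.3 times in Ascl5WT/WT. In Ascl5Mut/WT it was 52.1 and 27.5 times Trp63, against 43.4 and 29.9 times in the Ascl5WT/WT libraries of that table. Relative to Trp63, the Ascl5Mut/WT libraries thus lay on either side of the Ascl5WT/WT libraries, which was not so relative to Krt14.

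Krt17, a keratin of epithelial appendages, had 271.8 and 1864 in Ascl5Mut/Mut, against 4638 and 7184 in Ascl5WT/WT (log2 difference -2.74, SE 0.79, limma adjusted p = 0.221). Krt14, the keratin of basal epithelial cells, had 6362 and 20549, against 14740 and 13227, with overlap (adjusted p = 0.862 by limma). Gm11532 was 0.332 and 1.44 times Krt14 in Ascl5Mut/Mut, against 59.0 and 29.5 times in Ascl5WT/WT. In the other table it was 27.1 and 11.4 times Krt14 in Ascl5Mut/WT, against 54.7 and 27.3 times in Ascl5WT/WT, so both Ascl5Mut/WT ratios lay below both Ascl5WT/WT ratios. Gm11532 was 7.77 and 15.8 times Krt17 in Ascl5Mut/Mut, against 188 and 54.3 times in Ascl5WT/WT. In Ascl5Mut/WT it was 40.1 and 62.3 times Krt17, against 189 and 54.6 times in Ascl5WT/WT, with overlap. The ratio of Gm11532 to Trp63, Krt14 and Krt17 was lower in both Ascl5Mut/Mut libraries than in both Ascl5WT/WT libraries, by amounts that depend on the gene chosen. Gm11532 was chosen for its low values in Ascl5Mut/Mut, so these lower ratios are a description and test nothing.

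Other listed genes of the dental epithelium were too low to test in Ascl5Mut/Mut. Msx2, a homeobox factor of tooth epithelium and mesenchyme, had 0 and 541.0, against 1834 and 1097. Sostdc1, a secreted BMP and Wnt antagonist, had 0 and 0, against 1413 and 1684. Msx2 and Sostdc1, picked after their values were seen, were lower in each Ascl5Mut/Mut library than in either Ascl5WT/WT library. Shh, Bcl11b, Jag1, Foxo1 and Eda, also listed and under the filter, were lower without overlap too. For background, 21.8% of the 2336 genes tested did not overlap and were lower, but those genes passed a filter that these did not. Among the listed genes under the filter, Klf5, Bmp4, Edar and Jag2 had higher means in Ascl5Mut/Mut, with overlap. Ctnnb1, the signal carrier of the Wnt pathway, passed the filter and had 3553 and 5998, against 7477 and 5033, with overlap.

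Enamel genes and reported Sp6 targets had few counted reads at this age. Of the 11 listed, 0 passed the filter in either comparison. The list summed to 2210 and 2040 in Ascl5Mut/Mut, against 1956 and 865.1 in Ascl5WT/WT, and to 3534 and 3960 in Ascl5Mut/WT, against 1979 and 901.2 in Ascl5WT/WT. Alpl, a phosphatase of mineralizing cells, had 548.6 and 139.3 in Ascl5Mut/Mut, against 108.4 and 0 in Ascl5WT/WT. In the other table Alpl had 1001 and 1527 in Ascl5Mut/WT, against 110.0 and 0 in Ascl5WT/WT. The enamel matrix gene Enam had 251.9 and 809.2 in Ascl5Mut/WT, against 112.5 and 0 in Ascl5WT/WT, and Ambn, another, had 383.4 and 135.6, against 0 and 0. Of the 11 listed, these 3 did not overlap between Ascl5Mut/WT and Ascl5WT/WT, and the others did. Among all genes tested, which passed a filter that these 3 did not, 21.1% did not overlap and were higher. The 135.6 of Ambn and the 251.9 of Enam amount to about 1 and 2 reads, so a count over so few genes and reads shows little. The enamel matrix gene Amelx and the enamel protease Mmp20 were listed at 0 in all 4 libraries of the Ascl5Mut/Mut table, and each had a value in 1 Ascl5Mut/WT library (127.0 and 253.1), about 1 and 2 reads. Rock1, a kinase of the cytoskeleton, had 959.6 and 400.4 in Ascl5Mut/Mut, against 871.6 and 625.3 in Ascl5WT/WT. Fst, encoding the activin and BMP antagonist follistatin, had 561.9 and 685.4, against 323.4 and 0, a difference of a few reads. Dlx3, a homeobox gene of ameloblasts, had 0 and 0 in Ascl5Mut/Mut, against 544.3 and 0 in Ascl5WT/WT.

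The SP family as a whole had few reads, and 0 of its 9 members, Sp6 included, passed the filter in either comparison. Sp5 and Sp8 were listed at 0 in all 6 libraries, and Sp4 had 127.0 in 1 Ascl5Mut/WT library alone. Sp1, a widely expressed factor, had 0 and 0 in Ascl5Mut/Mut, against 0 and 1320 in Ascl5WT/WT. Sp3 had 272.8 and 130.4, against 111.3 and 251.3. Sp7, the osteoblast factor osterix, had 0 and 692.1, against 217.2 and 236.8. Its values were 378.8 and 695.3 in Ascl5Mut/WT, against 221.1 and 246.5 in Ascl5WT/WT. Sp9 had a value in 1 library, 653.8 in Ascl5WT/WT replicate 1.

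The genes whose pattern over the 6 libraries was most like that of Gm11532 were found by Pearson's r on log2(value + 120) among the 2028 genes averaging 1000 or more in both tables. The 8 with the highest r were Stard4, Trappc12, Sec24c, Jak1, Iqgap2, Kdelr3, Arhgap5 and the noncoding model 4933401H06Rik, at 0.993 to 0.966. The Ascl5Mut/Mut libraries stand apart from the other 4, and r rests largely on them, so it is given as a description only. Over the 4 libraries without Ascl5Mut/Mut, r was 0.975 for Stard4 and 0.979 for Iqgap2, but -0.02 for Jak1 and -0.46 for 4933401H06Rik. In all, 49 genes had an r of at least 0.9.

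Stard4, which carries sterols between membranes, had 0 and 265.4 in Ascl5Mut/Mut and 1512 and 2138 in Ascl5Mut/WT, against 3836 and 1956 in Ascl5WT/WT. Its log2 difference was -0.62 in Ascl5Mut/WT, and none is given for Ascl5Mut/Mut, where its values are at 0 or under the floor. Jak1, a kinase of cytokine receptors, had 841.1 and 1884 in Ascl5Mut/Mut and 6322 and 6581 in Ascl5Mut/WT, against 7087 and 8960 in Ascl5WT/WT. Its log2 difference was -2.54 in Ascl5Mut/Mut and -0.34 in Ascl5Mut/WT. Iqgap2, a cytoskeletal scaffold, had 563.7 and 2004 in Ascl5Mut/Mut and 2901 and 3508 in Ascl5Mut/WT, against 4930 and 3016 in Ascl5WT/WT. These genes were ranked on the same values, so no test is given for them.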

How the data were processed

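RNA of 6 libraries, 2 per genotype, was measured with the SMARTer Stranded kit per the labels' protocols. The authors deposited normalized counts per gene (unlogged signal values) as 2 tables. Per the submitters' processing notes, the mm10 genome and DESeq2 were used. The sources used here name no aligner, annotation or strand setting. Low values were not whole multiples of 1 step, so no count model was run.

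The members and gene lists were chosen with earlier results of these data known, as were the pseudocount and the filter. Mutant and Ascl5WT/WT libraries of each table were compared by limma 3.58.1 (R 4.3.3), with a trend of variance on level, on log2(value + 120) for genes averaging 1000 or more, two-sided, with Benjamini-Hochberg adjustment over all genes tested and a call at an adjusted p under 0.05. Fold changes on this scale understate the change of low genes. The fit was also run on simulated data, with the same spread for every gene beyond counting error. That setting differs from these libraries, so the simulation is no check of the calls given here. The labels do not name separate animals, so p-values measure only the spread between these samples. The 2 mutant genotypes were not tested against each other. Named genes were the members, the SP family, list members by call or level, genes within 100 kb, and the 8 genes with the highest r. Some genes under this rule are not reported here. In a sum over 6 libraries, Ascl5WT/WT values came from the table with Ascl5Mut/Mut, and 11 gene names that differ between the tables were left out. The minimum pair sum and the ratios to epithelial genes were chosen after the values were seen. Gene models and sequences are from GENCODE M21 (GRCm38).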

Additional observations from a re-analysis of the deposited data

How the results depend on the processing

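For Ascl5Mut/Mut, limma called 20 genes, 4 with a pseudocount of 1, 1 with a minimum mean of 10 or no filter, 0 without the intensity trend (242 at an unadjusted p under 0.05), 38 after quantile normalization, and 0 to 74 without 1 replicate. For Ascl5Mut/WT, it called 13 genes, 8 with a pseudocount of 1, 0 without the trend (190 at an unadjusted p under 0.05), and 0 to 66 without 1 replicate. With the replicate block, 36 and 37 genes were called, but the numbers only name the samples: deviations of same-numbered libraries had a correlation of -0.01 and 0.02. A pseudocount of 1000 and a rescaling to the total outside the locus kept both counts within 1.5 times. The cause of these changes was not tested. The log2 difference of Gm11532 in Ascl5Mut/Mut ranged from -8.03 to -4.30 without 1 replicate and from -6.23 to -5.81 under the other alternatives. In Ascl5Mut/WT it was 0 after quantile normalization, which gives the top gene of each library the same value, and -1.20 to -0.07 without 1 replicate. The share of pairs with nearly all of the value in 1 gene was 45.3%, and 47.9% with at least 1000 shared bases. Values of Sp6 and its family were mostly under 15 estimated reads. For Sp6, a low level cannot be told apart from reads of the shared bases being counted under Gm11532.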

Other observations

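The KLF factors, the nearest relatives of the SP family, were also low, and 2 of 17 passed the filter in each comparison. In both comparisons limma called 0 of these 2, and 0 had an unadjusted p under 0.05, where 0.856% and 0.549% of all genes tested were called in Ascl5Mut/Mut and Ascl5Mut/WT and 261 of 2336 and 207 of 2370 had an unadjusted p under 0.05. A count over 2 genes shows little. Klf6, a factor induced in many tissues by injury and growth signals, had 1129 and 1214 normalized counts in Ascl5Mut/Mut and 2170 and 1220 in Ascl5Mut/WT, against 0 and 0 in Ascl5WT/WT. Klf5, a factor of proliferating epithelium, had 279.5 and 1725 in Ascl5Mut/Mut and 1503 and 1534 in Ascl5Mut/WT, against 930.4 and 0 in Ascl5WT/WT. Klf4, a factor of differentiating epithelium, had 559.5 and 1119 in Ascl5Mut/Mut, against 2356 and 237.3 in Ascl5WT/WT, with overlap. Klf6 and Klf5 were singled out after their values were seen.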
